A study of Homo sapiens with 8 samples.

Results

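Control H2030-BrM cells that had spent 48 h on a mouse brain slice were compared with the same cells in a dish, through the messenger RNA bound to their ribosomes. The comparison rests on 4 of the 8 libraries of the series, 2 from the dish (shControl_dish) and 2 from the slice (shControl_slice). All 4 came from cells that carried an shRNA against luciferase and the vector pLVX-EGFP-Rpl10a-IRES-hygro, which makes ribosomal protein Rpl10a with a green fluorescent tag. H2030-BrM is a brain-metastatic derivative of the human lung adenocarcinoma line H2030. The dish cells were taken at 0 h, from RPMI 1640 with 10% serum, and the slice cells at 48 h, from a brain section on a porous membrane over DMEM and HBSS medium with 5% serum. Time, medium, serum and substrate therefore differed together with the brain tissue and cannot be told apart. The other 4 libraries hold the same pair of cultures with L1CAM shRNA (shL1CAM_dish and shL1CAM_slice). They entered the fit and served as a second look at the same genes.

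In translating ribosome affinity purification, an antibody against the fluorescent tag pulls out tagged ribosomes together with the messages they carry. In a slice this separates the transcripts of the tumour cells from those of the surrounding tissue, which has no tagged ribosomes. Tumour cells placed on such slices settle along the capillaries and spread on them, and the slice culture is used as a model of the first steps of brain colonization. What the purification measures is the share of each message among those bound to ribosomes. Fewer cells of a kind and less of an RNA per cell cannot be told apart in such bulk samples, and a fall in a share is not a fall in the amount per cell.

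Recovered reads came to 15838921 and 16253609 in the dish libraries and 15609989 and 13899903 in the slice libraries, and 3 reads, the limit that a count of 0 allows through counting error alone, were worth 2.83 to 3.21 normalized counts. Of 23368 genes, the 13010 whose average over all 8 libraries reached 10 were tested. Log2 values of the 2 replicates differed with an SD over genes of 0.288 in the dish and 0.218 on the slice. The labels call the 2 libraries of a group biological replicates without saying that they were separate cultures, so p-values may reflect technical spread only. Replicate 2 of shL1CAM_slice stood apart. Against the mean of the shControl_slice libraries its median log2 difference was 0.54 in the tenth of genes with the shortest transcripts and -0.73 in the longest, while replicate 1 had 0.01 and 0.00. Counts are therefore also given without it, as decided once the data had been examined. Leaving out replicate 1 of that group instead gave nearly the same counts, and either omission takes the spread within shL1CAM_slice out of the fit. Counts without replicate 2 are thus not a correction for that library alone. L1CAM itself had a normalized count of 482 and 440.4 in the dish and 451 and 438 on the slice with control shRNA, and of 126 and 88.3 in the dish and 74.7 and 65.4 on the slice with L1CAM shRNA, as the labels say. Between slice and dish in control cells L1CAM did not pass the threshold (-0.05, adjusted p = 0.888, limma).

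A large part of the translated messages differed between slice and dish, in both directions. By limma, 885 genes rose (6.8% of those tested) and 1045 fell (8.03%), 14.8% together, and 307 and 362 of them moved by more than a factor of 2. In 5172 genes (39.8%) both slice libraries lay above both dish libraries, and in 4857 (37.3%) both lay below. The genes that rose took up 4.25% and 4.49% of all signal in the dish and 8.14% and 8.21% on the slice. Those that fell took 15.4% and 14.9% in the dish and 8.78% and 8.67% on the slice. Per kilobase of transcript, the genes that fell had a median normalized count of 263 in the dish, against 113 for those that rose and 126 for all genes tested with a known length. By their median in the dish, the genes that fell were thus the more abundant ones. The same dish values entered the calls, so this is a description and not a separate result. The median log2 fold change of all genes was 0.01, and the median size without regard to sign was 0.33. The shares of 6.8% and 8.03% and the median of 0.01 are the background for each gene list described.

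**Figure D1:**
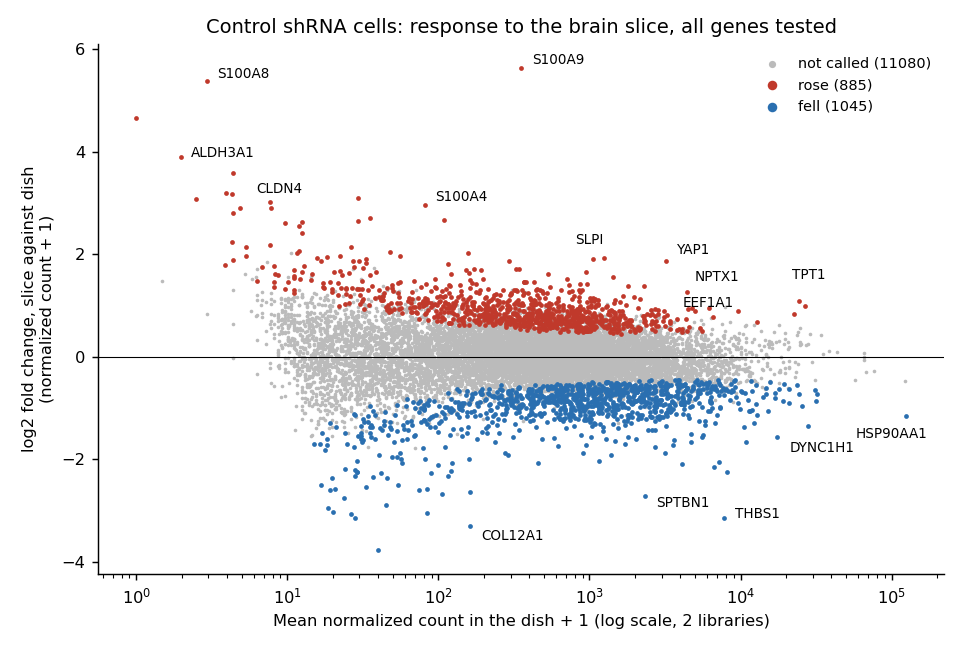
Log2 fold change of each tested gene between slice and dish in control shRNA cells (vertical axis, normalized count plus 1) against its mean normalized count in the dish plus 1 (horizontal axis, log scale, 2 libraries). Each point is a gene, red for the 885 that rose, blue for the 1045 that fell and grey for the rest, and S100A9 and S100A8 stand above 5 while THBS1 and COL12A1 stand below -3.

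The number of genes past the threshold depended on which libraries were in the fit, in which all groups share 1 estimate of the spread. Without replicate 1 or 2 of shControl_dish it was 7 or 128 genes, and without replicate 1 or 2 of shControl_slice 65 or 58. Without replicate 1 or 2 of shL1CAM_dish it was 1135 or 1127, and without replicate 1 or 2 of shL1CAM_slice 6086 or 6109. None of the 1930 genes changed sign in any of these 8 fits. Leaving out an L1CAM shRNA library does not alter the control fold change, and genes whose control groups do not overlap cannot change sign. This was thus largely fixed by the design of the fits. The 6 named genes called in all 8 were S100A9, S100A8, ITGA10, COL12A1, CTGF and CYR61, and a further 24 named genes were called in 7, among them S100A4, MUC1, ZNF467, THBS1, SPTBN1, FLNA, NUP107, PFAS and TAP2. The counts of gene lists moved with these libraries too.

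The promoters of 4 genes are shown because their messages lie at the extremes of the response. S100A9 had the largest rise of all, YAP1 one of the largest gains in count, CLDN4 one of the largest rises from a few reads, and THBS1 the largest fall among matrix glycoproteins. Each run holds the 250 bases before the start, on the plus strand of GRCh38.p14, from RefSeq, at chr1:153357604-153357853, chr11:102110197-102110446, chr7:73830746-73830995 and chr15:39580829-39581078. Capitals mark matches on either strand to any of 6 motifs, TGANTCA (AP-1), TTCCNGGAA (STAT), the consensus named NF-kB, GGAATG (TEAD), CCAAT (NF-Y) and TTGGCGC (E2F), and a match to a motif may overlap a match to another.
S100A9: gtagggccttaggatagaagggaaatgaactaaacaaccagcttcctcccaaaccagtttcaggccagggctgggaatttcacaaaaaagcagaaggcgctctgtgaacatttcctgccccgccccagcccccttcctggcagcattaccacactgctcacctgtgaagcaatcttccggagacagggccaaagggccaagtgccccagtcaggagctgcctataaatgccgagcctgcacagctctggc
YAP1: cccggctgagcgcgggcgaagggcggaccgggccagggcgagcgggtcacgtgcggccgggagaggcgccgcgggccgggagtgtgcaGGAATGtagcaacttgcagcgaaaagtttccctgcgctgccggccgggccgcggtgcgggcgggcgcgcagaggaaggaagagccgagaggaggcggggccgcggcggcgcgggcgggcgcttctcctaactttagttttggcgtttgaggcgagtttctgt
CLDN4: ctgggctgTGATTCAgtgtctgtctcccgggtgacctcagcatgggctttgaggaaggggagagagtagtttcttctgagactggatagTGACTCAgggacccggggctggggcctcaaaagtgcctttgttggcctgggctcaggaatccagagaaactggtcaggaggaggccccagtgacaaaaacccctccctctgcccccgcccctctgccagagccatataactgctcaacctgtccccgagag
THBS1: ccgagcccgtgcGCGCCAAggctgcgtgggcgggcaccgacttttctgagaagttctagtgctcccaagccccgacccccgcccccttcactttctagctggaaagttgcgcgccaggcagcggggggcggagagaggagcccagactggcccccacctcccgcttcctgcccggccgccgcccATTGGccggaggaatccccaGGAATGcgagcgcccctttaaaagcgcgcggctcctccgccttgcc
The S100A9 run held 0 matches and the YAP1 run 1, to the TEAD motif. The CLDN4 run held 2 AP-1 matches, and the THBS1 run 1 match each to the E2F, NF-Y and TEAD motifs. A match describes letters and is not a bound site.

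Over all genes with a promoter in the RefSeq table (10144 of those tested, with 14897 windows of 300 bases that reach 50 bases past the start), the E2F motif was in 7.78% of windows of genes that fell, 3.37% of those that rose and 4.57% of all windows of tested genes. Leaving out the genes of the G1/S and G2/M lists, 6.26% of the windows of genes that fell held it. The NF-Y motif was in 40.9%, 33% and 34.5% in the same order, and in 38.1% for genes that fell when the G1/S and G2/M lists were left out. AP-1 letters stood in 4.27%, 5.74% and 5.11%, TEAD letters in 12.2%, 10.4% and 11.2%, STAT letters in 0.855%, 1.73% and 1.12% and NF-kB letters in 1.71%, 1.55% and 1.42%. Over the whole table of 35116 windows the shares were 3.04% for E2F, 34.6% for NF-Y, 7.71% for AP-1, 14% for TEAD, 1.15% for STAT and 1.4% for NF-kB. These shares are descriptions with no test.

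Some of the largest rises were in secreted and calcium-binding proteins of epithelial and inflamed tissue. S100A9, a subunit of the inflammatory protein calprotectin, had normalized counts of 254 and 447 in the dish and 17392 and 16113 on the slice, a log2 fold change of 5.63 ± 0.36 (SE, adjusted p = 0.000329, limma). Its partner S100A8 had 1.96 and 1.89 in the dish and 133 and 108 on the slice, or 2 and 2 reads against 139 and 101, a ratio of 63.1 (95% exact counting interval 24.3 to 233; limma adjusted p = 0.00026). For both subunits the groups were far apart and the slice replicates close together. Of 11 tested S100 genes, 6 rose and 0 fell, and the median log2 fold change was 0.98, and all 11 lay above 0. S100A4, linked to motility, had 71.4 and 88.7 in the dish and 611 and 639 on the slice, a log2 fold change of 2.96 ± 0.29 (SE, adjusted p = 0.00223, limma). S100A6 (0.98, adjusted p = 0.0284), S100A10, the partner of annexin A2 (0.88, adjusted p = 0.0201), and S100A16 (1.00, adjusted p = 0.0326) also rose. The S100A6 counts of 25344 and 28339 in the dish and 52326 and 53517 on the slice were among the largest gains in count of all genes. With any 1 of the 4 control libraries left out, 2 to 3 of the S100 genes rose and 0 fell, and 9 rose without replicate 2 of shL1CAM_slice.

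Several genes of the airway secretory cell and of mucosal defence rose beside them. Of 9 tested members, 5 rose and 0 fell, and the median log2 fold change was 1.86. SLPI, a protease inhibitor of mucus, had 973 and 1501 in the dish and 4552 and 4618 on the slice, a log2 fold change of 1.92 ± 0.35 (SE, adjusted p = 0.0111, limma). MUC1, a membrane mucin, had 299 and 287 in the dish and 1081 and 1069.9 on the slice, or 1.87 ± 0.20 (SE, adjusted p = 0.00247, limma). The elastase inhibitor PI3 had 24.5 and 39.6 in the dish and 109 and 132 on the slice (1.91, adjusted p = 0.00928, limma). In all of these both slice libraries were above both dish libraries. CEACAM1, a cell adhesion molecule, rose too (1.86, adjusted p = 0.0363). ALDH3A1, an aldehyde dehydrogenase of the airway and cornea, went from 1 read in each dish library to 30 and 26 on the slice, a ratio of 29.4 with a 95% exact counting interval of 7.77 to 249 (limma adjusted p = 0.00559). The list is small because 43 of its 52 genes were below the filter. As each of the 4 control libraries was left out in turn, 0 to 2 of the members rose and 0 fell.

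Other surface and junction genes moved one by one. CLDN4, a tight junction claudin, had 7.83 and 5.66 in the dish and 49.7 and 64.2 on the slice, a log2 fold change of 2.91 ± 0.31 (SE, adjusted p = 0.00247, limma). Its promoter run holds 2 AP-1 matches. It was the 1 of 8 claudins that rose, with 0 that fell. The tetraspanin TSPAN1, an epithelial membrane protein, had 34.2 and 27.4 in the dish and 100.3 and 108 on the slice (1.73, adjusted p = 0.0157), and 3 of 22 tetraspanins rose with 0 that fell. The simple keratins KRT8 (-0.20, adjusted p = 0.566) and KRT18 (-0.27, adjusted p = 0.422) did not pass the threshold, while KRT80 fell from 1134 and 767 to 294 and 271 (-1.72, adjusted p = 0.00447). Of 13 mesenchymal regulators and markers 1 rose, S100A4, and 2 fell, the actin-binding TAGLN (-1.37, adjusted p = 0.0369) and the receptor PDGFRA (-1.71, adjusted p = 0.0461). The 7 tested genes of the squamous and cornified envelope gave 0 calls by limma, with values from -0.34 to 1.01, and 3 rises and 1 fall without replicate 2 of shL1CAM_slice. The further large rises with a dish mean of at least 50 were SUSD2 (2.67, adjusted p = 0.0171), a membrane protein, ZNF467 (2.02, adjusted p = 0.00283), a zinc finger factor, FAM107B (1.91, adjusted p = 0.0024) and NREP (1.71, adjusted p = 0.00223). Without replicate 2 of shL1CAM_slice, 3 of the claudins rose and 1 fell, 5 of the tetraspanins rose and 5 fell, 0 of the keratins rose and 2 fell and 2 of the mesenchymal genes rose and 3 fell. Across the 4 fits that lack 1 control library, 0 to 1 of the claudins rose and 0 fell, 0 of the tetraspanins rose and 0 fell, 0 of the keratins rose and 0 to 1 fell and 0 to 1 of the mesenchymal genes rose and 0 fell.

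**Figure D2:**
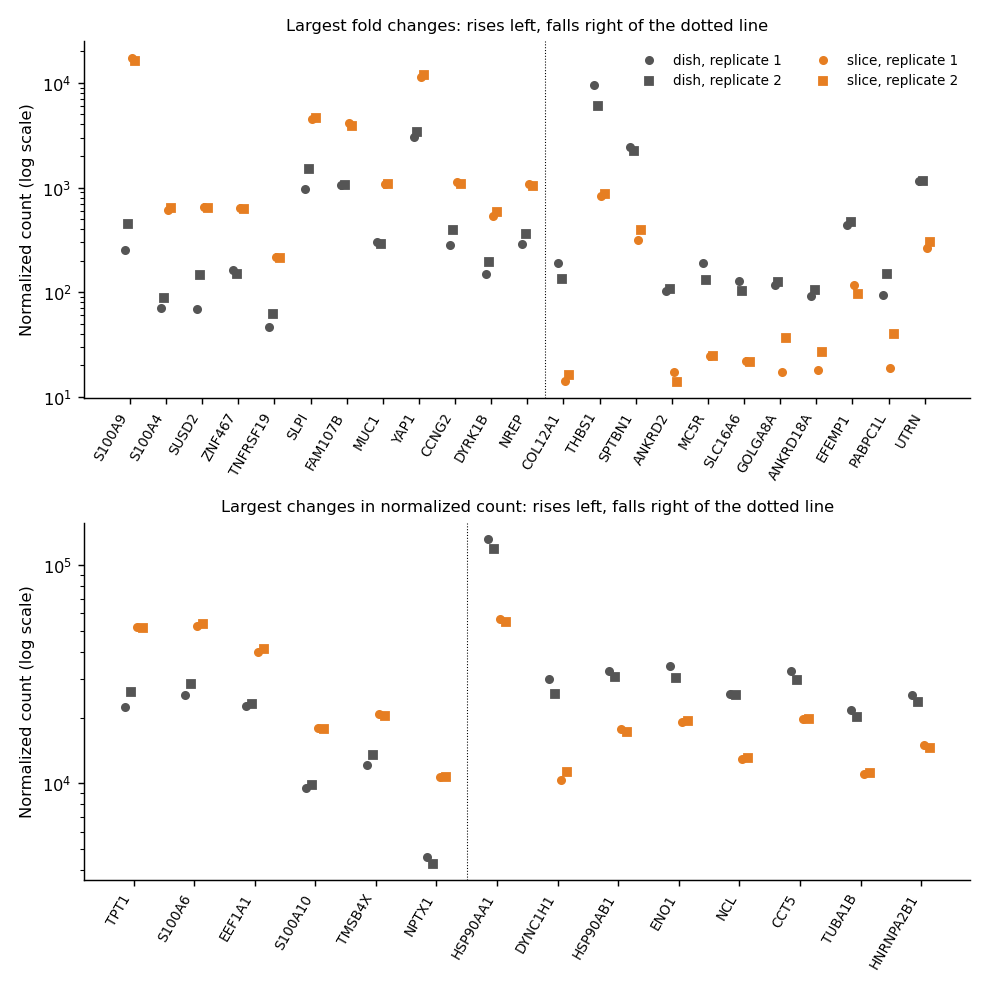
Normalized count in each of the 4 control shRNA libraries (vertical axes, log scale) of genes with the largest fold changes (upper plot) and the largest changes in count among the other genes (lower plot), grey for the dish and orange for the slice, circles for replicate 1 and squares for replicate 2. In every gene drawn both slice libraries lie on the same side of both dish libraries.

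Some of the largest falls were in genes of the extracellular matrix. THBS1, the matrix glycoprotein thrombospondin 1, had 9497 and 5968 in the dish and 832 and 873 on the slice, a log2 fold change of -3.14 ± 0.36 (SE, adjusted p = 0.00253, limma). COL12A1, a collagen that decorates collagen fibrils, had 189.8 and 133 in the dish and 14.3 and 16 on the slice, or -3.31 ± 0.25 (SE, adjusted p = 0.00111, limma). EFEMP1, a fibulin of the elastic matrix, had 439 and 467 in the dish and 118 and 96.3 on the slice (-2.07, adjusted p = 0.00192). The slice libraries were below the dish libraries in each. Of 23 tested collagens, 0 rose and 4 fell, and the median log2 fold change was -0.43, with COL7A1 (-1.28), COL11A2 (-1.62) and COL4A4 (-1.35) at low counts. Of 38 tested matrix glycoproteins and proteoglycans, 2 rose and 9 fell, and the median log2 fold change was -0.30. Among the falls were periostin (POSTN, -1.49), TGFBI (-1.14) and the proteoglycan SPOCK2 (-1.39), and the rises were tenascin C (TNC, 1.64) and ECM1 (1.47). The list shares CTGF and CYR61 with the known targets of YAP and TAZ. In the fit that leaves out replicate 2 of shL1CAM_slice, 1 of the collagens rose and 8 fell and 4 of the matrix genes rose and 16 fell. In fits without 1 of the 4 control libraries, 0 of the collagens rose and 1 fell and 0 to 1 of the matrix genes rose and 2 to 4 fell.

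Among receptors for the matrix, ITGA10, a collagen-binding integrin subunit, had 28.4 and 28.3 in the dish and 195 and 172 on the slice, a log2 fold change of 2.65 ± 0.22 (SE, adjusted p = 0.00184, limma), and it was the 1 of 14 integrin subunits that rose. ITGB5, a subunit of a vitronectin receptor, was the 1 that fell (-0.67, adjusted p = 0.0384). MMP11, a stromelysin, rose (1.22, adjusted p = 0.0337) and ADAM23 fell (-0.61, adjusted p = 0.0392), out of 34 MMP and ADAM genes. When replicate 2 of shL1CAM_slice was left out, 4 of the integrin subunits rose and 3 fell and 5 of the MMP and ADAM genes rose and 6 fell. With any 1 of the 4 control libraries left out, 1 of the integrin subunits rose and 0 fell and 0 of the MMP and ADAM genes rose and 0 fell.

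Spectrins, filamins and other large linkers, which join actin to membranes and to each other, held many falls and no rise. Of 28 tested linker genes, 0 rose and 13 fell, and the median log2 fold change was -0.96. The beta spectrin SPTBN1 had 2425 and 2249 in the dish and 315 and 395 on the slice, a log2 fold change of -2.72 ± 0.28 (SE, adjusted p = 0.0024, limma), and its partner SPTAN1 had 3611 and 3532 in the dish and 1041 and 1129 on the slice, or -1.72 ± 0.15 (SE, adjusted p = 0.00191, limma). Dish and slice libraries did not overlap in either. UTRN, a relative of dystrophin, had 1164 and 1161 in the dish and 264 and 304 on the slice (-2.03, adjusted p = 0.0353), and SYNE2, which anchors the nucleus, also fell (-1.88, adjusted p = 0.00921). DYNC1H1, the heavy chain of the dynein motor, had 30055 and 25692 in the dish and 10371 and 11269.7 on the slice, or -1.36 ± 0.20 (SE, adjusted p = 0.00566, limma). These messages are long. Over all genes, the median log2 fold change in control cells was -0.03 in the 10% of genes with the longest transcripts and 0.06 in the shortest 10%. With the length trend removed from each library the median of the linker genes was -0.84. Leaving out replicate 2 of shL1CAM_slice gave other counts: 0 of the linker genes rose and 25 fell. As each of the 4 control libraries was left out in turn, 0 of the linker genes rose and 0 to 5 fell. Of 16 tubulins 4 fell, TUBA1B (-0.91), TUBA4A (-0.88), TUBG1 (-0.84) and TUBB6 (-0.73), and 0 rose, against 7 falls and 4 rises without replicate 2 of shL1CAM_slice and 0 calls without any 1 control library.

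YAP1, the transcriptional co-activator that the Hippo pathway holds in check, rose. Its normalized counts were 3028 and 3401 in the dish and 11300.4 and 11959 on the slice, a log2 fold change of 1.86 ± 0.30 (SE, adjusted p = 0.00751, limma), one of the largest gains in count of all genes. Both slice libraries were more than 3 times either dish library. The call was lost without any 1 of the 4 control libraries. In the libraries with L1CAM shRNA the counts were 2953 and 2893 in the dish and 12093 and 5472 on the slice (1.48, limma adjusted p = 0.0125). CCNG2, an atypical cyclin of resting cells (1.72, adjusted p = 0.00688), and DYRK1B, a kinase that holds cells in quiescence (1.71, adjusted p = 0.00484), rose as well. Of the genes in the known lists, 58 of 78 G1/S genes, 68 of 91 G2/M genes and 10 of 26 YAP/TAZ targets fell, against 0, 1 and 0 that rose. Without replicate 2 of shL1CAM_slice, 0 of the G1/S genes rose and 75 fell, 2 of the G2/M genes rose and 88 fell and 2 of the YAP/TAZ targets rose and 14 fell. Across the 4 fits that lack 1 control library, 0 of the G1/S genes rose and 0 to 8 fell, 0 of the G2/M genes rose and 1 to 12 fell and 0 of the YAP/TAZ targets rose and 2 to 5 fell.

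Several feedback inhibitors of the ERK pathway, which growth factor signalling induces, rose. Of 23 tested genes, 7 rose and 2 fell, and the median log2 fold change was 0.39. SH2B3, an adaptor that dampens cytokine receptors, had 159 and 141 in the dish and 299 and 337 on the slice (1.07, adjusted p = 0.0158), and the phosphatase DUSP5 had 326 and 329 in the dish and 771 and 839 on the slice (1.29, adjusted p = 0.00619). SPRY2 (0.53), PHLDA1 (0.58) and IER3 (0.69) rose by less. EPHA2, an ephrin receptor (-0.66, adjusted p = 0.019), and EGR1 (-0.71, adjusted p = 0.0182) went the other way. Of 26 tested immediate early factors, 6 rose and 2 fell, and the median log2 fold change was 0.02, with KLF2 (1.17, adjusted p = 0.0174), JUND (0.93, adjusted p = 0.0184), NR4A2 (0.90) and KLF4 (0.73) up and MAFF (-0.68) and EGR1 down. The EGF receptor family and its ligands held 0 rises and 3 falls among 14 genes, HBEGF (-0.66, adjusted p = 0.0398), NRG1 (-1.13, adjusted p = 0.0295) and the transmembrane protein LRIG3 (-0.96, adjusted p = 0.0253). In the fit that leaves out replicate 2 of shL1CAM_slice, 14 of the ERK feedback genes rose and 7 fell and 2 of the EGF family genes rose and 4 fell. With any 1 of the 4 control libraries left out, 0 of these genes were called.

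Some genes that STAT3 or glucocorticoids induce rose, while others fell. Of 22 tested STAT3 and acute-phase genes, 6 rose and 1 fell, and the median log2 fold change was 0.40. CEBPB, a factor of the acute-phase response, had 744 and 782 in the dish and 1815 and 1897 on the slice, a log2 fold change of 1.28 ± 0.15 (SE, adjusted p = 0.00253, limma). SOCS1, a feedback inhibitor of cytokine receptors (1.65, adjusted p = 0.0154), and the receptor IL1R1 (1.37, adjusted p = 0.00794) rose, and the kinase PIM1 fell (-0.52, adjusted p = 0.0371). Of 16 tested glucocorticoid response genes, 4 rose and 3 fell, and the median log2 fold change was 0.19. TSC22D3, a glucocorticoid-induced leucine zipper protein, had 204 and 202 in the dish and 448 and 456 on the slice (1.15, adjusted p = 0.00786), and KLF9 rose too (0.97, adjusted p = 0.0348). The lowest value of the glucocorticoid list was that of TNFAIP3 (-1.16), 1 of the 3 that fell. The STAT3 and glucocorticoid lists share CEBPB and CEBPD. When replicate 2 of shL1CAM_slice was left out, 14 of the STAT3 genes rose and 2 fell and 7 of the glucocorticoid genes rose and 4 fell. In fits without 1 of the 4 control libraries, 0 to 2 of the STAT3 genes rose and 0 fell and 0 to 1 of the glucocorticoid genes rose and 0 fell.

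Several targets of NF-kB fell. Of 24 tested NF-kB targets, 1 rose and 4 fell, and the median log2 fold change was -0.33. The neutrophil chemokine CXCL1 had 234 and 254 in the dish and 95.5 and 95.2 on the slice (-1.34, adjusted p = 0.00794), and CXCL2 had 245 and 249.9 in the dish and 114 and 99.5 on the slice (-1.21, adjusted p = 0.0107). The feedback inhibitors TNFAIP3 (-1.16, adjusted p = 0.0098) and NFKBIA (-0.71, adjusted p = 0.0223) fell with them. CCL2, a monocyte chemokine, was the 1 that rose, with 353 and 387 in the dish and 864 and 889 on the slice (1.24, adjusted p = 0.00396). Of 39 interferon response genes 4 rose and 4 fell. GBP2, an interferon-induced GTPase, had 8.8 and 14.1 in the dish and 70.7 and 78.1 on the slice (2.63, adjusted p = 0.00366), whereas its relative GBP1 fell (-0.86, adjusted p = 0.0132), as did the RNA sensor OAS3 (-0.92, adjusted p = 0.0165). IRF1 (1.06, adjusted p = 0.00634), ISG20 (1.12, adjusted p = 0.0302) and SP100 (0.68, adjusted p = 0.0208) rose. The calls among interferon genes thus went in both directions. The shares that rose and fell, 10.3% each, were near the 6.8% and 8.03% of all genes tested.

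Parts of the peptide supply for antigen presentation fell. TAP2, a subunit of the peptide transporter, had 2770.2 and 2403 in the dish and 965 and 954 on the slice, a log2 fold change of -1.43 ± 0.14 (SE, adjusted p = 0.00223, limma). Its partner TAP1 had 2149 and 1768 in the dish and 1094 and 1044 on the slice (-0.87, adjusted p = 0.01), and the immunoproteasome subunit PSMB9 had 629.9 and 730.0 in the dish and 331 and 363 on the slice (-0.97, adjusted p = 0.0256). In each the slice libraries lay below the dish libraries. NLRC5, the activator of class I genes, rose (0.91, adjusted p = 0.0207). Of 23 antigen presentation genes these were 1 rise and, with the chaperone CANX (-0.73), 4 falls. Leaving out replicate 2 of shL1CAM_slice gave other counts: 3 of the NF-kB targets rose and 9 fell, 12 of the interferon genes rose and 4 fell and 4 of the antigen presentation genes rose and 7 fell. With any 1 of the 4 control libraries left out, 0 to 1 of the NF-kB targets rose and 0 fell, 0 to 1 of the interferon genes rose and 0 fell and 0 of the antigen presentation genes rose and 0 to 1 fell. Complement and coagulation genes held 3 rises among 24 and 0 falls, the anticoagulant PROS1 (1.29, adjusted p = 0.0206) and the proteases C1R (1.49, adjusted p = 0.0267) and C1RL (0.82, adjusted p = 0.0322), with 6 rises and 3 falls without replicate 2 of shL1CAM_slice and 0 calls without any 1 control library.

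Developmental pathways gave isolated changes. In the Notch pathway, in which ligands on a cell trigger the cleavage of receptors on its neighbour, the ligand DLL4 had 29.3 and 39.6 in the dish and 236 and 218 on the slice (2.70, adjusted p = 0.00253). The ligand JAG2 had 2859 and 2564 in the dish and 1002 and 996 on the slice (-1.44, adjusted p = 0.00235), and the receptor NOTCH1 had 342 and 284 in the dish and 149 and 167 on the slice (-0.98, adjusted p = 0.0207). A ligand thus rose as another and a receptor fell, and these were all the calls among 25 Notch genes. In the Wnt pathway the feedback gene AXIN2 (1.41, adjusted p = 0.019) and TNFRSF19 (1.97, adjusted p = 0.0106) rose, while the ligand WNT7B (-1.52, adjusted p = 0.0148), the receptor FZD7 (-0.83, adjusted p = 0.0385) and the inhibitor DKK1 (-0.54, adjusted p = 0.0449) fell, out of 24. In the list of TGF-beta and BMP responses 2 of 24 rose and 4 fell. ID2, an inhibitor of differentiation factors, had 569 and 397 in the dish and 159 and 150.9 on the slice (-1.61, adjusted p = 0.00502). ID4 went from 28 and 8 reads in the dish to 1 read in each slice library, a ratio of 17.1 of dish over slice with a 95% exact counting interval of 4.41 to 147 (limma adjusted p = 0.0109). PMEPA1, a feedback inhibitor of the same pathway, rose (0.81, adjusted p = 0.015). Without replicate 2 of shL1CAM_slice, 9 of the Notch genes rose and 3 fell, 4 of the Wnt genes rose and 7 fell and 4 of the TGF-beta and BMP genes rose and 8 fell. As each of the 4 control libraries was left out in turn, 0 to 1 of the Notch genes rose and 0 to 1 fell, 0 of the Wnt genes rose and 0 fell and 0 of the TGF-beta and BMP genes rose and 0 to 2 fell.

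Some receptors of the TNF family and some BH3-only proteins, which promote apoptosis, rose. Of 10 genes of the TNF receptor superfamily 4 rose. TNFRSF21, a death-domain receptor, had 1919 and 2048 in the dish and 4477 and 4388 on the slice (1.16, adjusted p = 0.0073), TNFRSF1A, the main TNF receptor, had 1887 and 1854 in the dish and 3035 and 3118 on the slice (0.72, adjusted p = 0.0227), and the decoy receptor TNFRSF10C rose at low counts (1.58, adjusted p = 0.0354). Of 17 genes of the BCL2 family 3 rose and 0 fell, and all 3 were BH3-only members. BCL2L11 (BIM) had 282 and 282 in the dish and 604 and 582 on the slice (1.07, adjusted p = 0.0225), BMF had 55.8 and 56.6 in the dish and 91.7 and 112 on the slice (0.84, adjusted p = 0.0361) and BIK had 38.1 and 43.4 in the dish and 85.9 and 90.9 on the slice (1.10, adjusted p = 0.0371). BBC3, a further BH3-only gene, did not pass (0.92, adjusted p = 0.0894). Among 23 p53 targets MDM2 (0.57, adjusted p = 0.042) and ZMAT3 (0.81, adjusted p = 0.0334) rose and PLK2 (-1.56, adjusted p = 0.00396) and POLH (-0.98, adjusted p = 0.0168) fell. In the fit that leaves out replicate 2 of shL1CAM_slice, 5 of the TNF receptor genes rose and 2 fell, 9 of the BCL2 family genes rose and 3 fell and 9 of the p53 targets rose and 4 fell. Without either replicate of shL1CAM_dish 0 of the BCL2 family were called, and across the 4 fits that lack 1 control library, 0 of the TNF receptor genes rose and 0 fell, 0 of the BCL2 family genes rose and 0 fell and 0 of the p53 targets rose and 0 to 1 fell.

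Many genes of nucleotide synthesis fell on the slice. Of 24 tested genes of nucleotide synthesis, 1 rose and 11 fell, and the median log2 fold change was -0.55. PFAS, an enzyme of purine synthesis, had 1309.8 and 1241 in the dish and 421 and 417 on the slice, a log2 fold change of -1.60 ± 0.17 (SE, adjusted p = 0.0024, limma). GMPS, which makes GMP, had 2109 and 2275 in the dish and 989 and 923 on the slice (-1.20, adjusted p = 0.00316), GART had 4816 and 4682 in the dish and 2455 and 2397 on the slice (-0.97, adjusted p = 0.00679), and the CTP synthase CTPS fell too (-0.93, adjusted p = 0.00597). No dish library was as low as a slice library in any of these. The first enzymes of pyrimidine synthesis, CAD (-0.78, adjusted p = 0.0146) and DHODH (-0.80, adjusted p = 0.017), followed, and UCK1, a kinase that salvages nucleosides, was the 1 that rose (0.74, adjusted p = 0.0404). When replicate 2 of shL1CAM_slice was left out, 3 of the nucleotide synthesis genes rose and 18 fell. In fits without 1 of the 4 control libraries, 0 of the nucleotide synthesis genes rose and 0 to 1 fell.

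In the supply of serine, one-carbon units and amino acids, many of them targets of the stress factor ATF4, 12 of 35 genes fell and 4 rose, with a median of -0.49. Asparagine synthetase (ASNS, -1.53, adjusted p = 0.00814), the first enzyme of serine synthesis PHGDH (-1.05, adjusted p = 0.0353) and the mitochondrial enzyme MTHFD1L (-1.30, adjusted p = 0.00278) fell. SLC7A5, the carrier of large neutral amino acids, had 11795 and 11119 in the dish and 5357 and 5546 on the slice, a log2 fold change of -1.07 ± 0.13 (SE, adjusted p = 0.00325, limma), and its partner SLC3A2 fell with it (-0.89, adjusted p = 0.0226). ATF4 itself rose (0.73, adjusted p = 0.0175), as did its target TRIB3 (1.41, adjusted p = 0.0282) and argininosuccinate synthase ASS1 (1.06, adjusted p = 0.0235). The calls within the list thus went in both directions. Leaving out replicate 2 of shL1CAM_slice gave other counts: 6 of the genes of the list rose and 21 fell. With any 1 of the 4 control libraries left out, 0 to 1 of the genes of the list rose and 0 to 2 fell. Among all 194 solute carriers 14 rose and 20 fell (7.22% and 10.3%), near the share of all genes. The falls included the nucleoside carrier SLC29A1 (-1.45, adjusted p = 0.00253), the folate carrier SLC19A1 (-1.22, adjusted p = 0.00502) and SLC16A6 (-2.34, adjusted p = 0.00253), and the rises the choline carrier SLC44A1 (0.94, adjusted p = 0.0182) and the glutamate carrier SLC1A1 (1.01, adjusted p = 0.0384). Without replicate 2 of shL1CAM_slice, 37 of the solute carriers rose and 50 fell, and with a control library left out at most 0 rose and 3 fell.

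Genes of glycolysis fell in part, and some genes of cholesterol synthesis rose. Of 22 tested glycolysis genes, 0 rose and 9 fell, and the median log2 fold change was -0.35. The glucose carrier SLC2A1 had 2911 and 2545 in the dish and 1226 and 1371 on the slice (-1.07, adjusted p = 0.00566), the enzyme enolase ENO1 had 34237 and 30178 in the dish and 19169 and 19335 on the slice (-0.74, adjusted p = 0.0325), and PGK1 (-0.63, adjusted p = 0.032) and HK2 (-0.78, adjusted p = 0.0337) fell too. Hypoxia genes gave 5 falls and 2 rises among 22, with the peptide hormone ADM at 313 and 259 in the dish and 68.8 and 80.2 on the slice (-1.93, adjusted p = 0.00339). In the tricarboxylic acid cycle, fumarase FH (-0.82, adjusted p = 0.0133) and citrate synthase CS (-0.48, adjusted p = 0.042) were among 4 of 25 that fell, and pyruvate carboxylase PC, which refills the cycle, rose (1.05, adjusted p = 0.0122). In cholesterol synthesis 4 of 24 rose and 0 fell, MSMO1 (1.01, adjusted p = 0.0117), MVD (1.03, adjusted p = 0.042), LSS (0.58, adjusted p = 0.0431) and the regulator INSIG1 (0.82, adjusted p = 0.0301). The median of this list was 0.07, and with L1CAM shRNA 1 of its genes rose and 4 fell, with a median of -0.20. The value of INSIG1 was 0.53 without replicate 1 of shControl_dish. ACSS2, which makes acetyl-CoA from acetate, had 1236 and 1659.9 in the dish and 2963 and 2979 on the slice (1.05, adjusted p = 0.0147), while the fatty acid elongase ELOVL5 (-0.65, adjusted p = 0.0308) and the factor SREBF1 (-0.58, adjusted p = 0.0359) fell. In the fit that leaves out replicate 2 of shL1CAM_slice, 0 of the glycolysis genes rose and 14 fell, 5 of the hypoxia genes rose and 11 fell, 1 of the cycle genes rose and 16 fell and 8 of the cholesterol genes rose and 5 fell. With any 1 of the 4 control libraries left out, 0 genes of glycolysis, the cycle and cholesterol synthesis and 0 or 1 hypoxia genes were called.

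**Figure D3:**
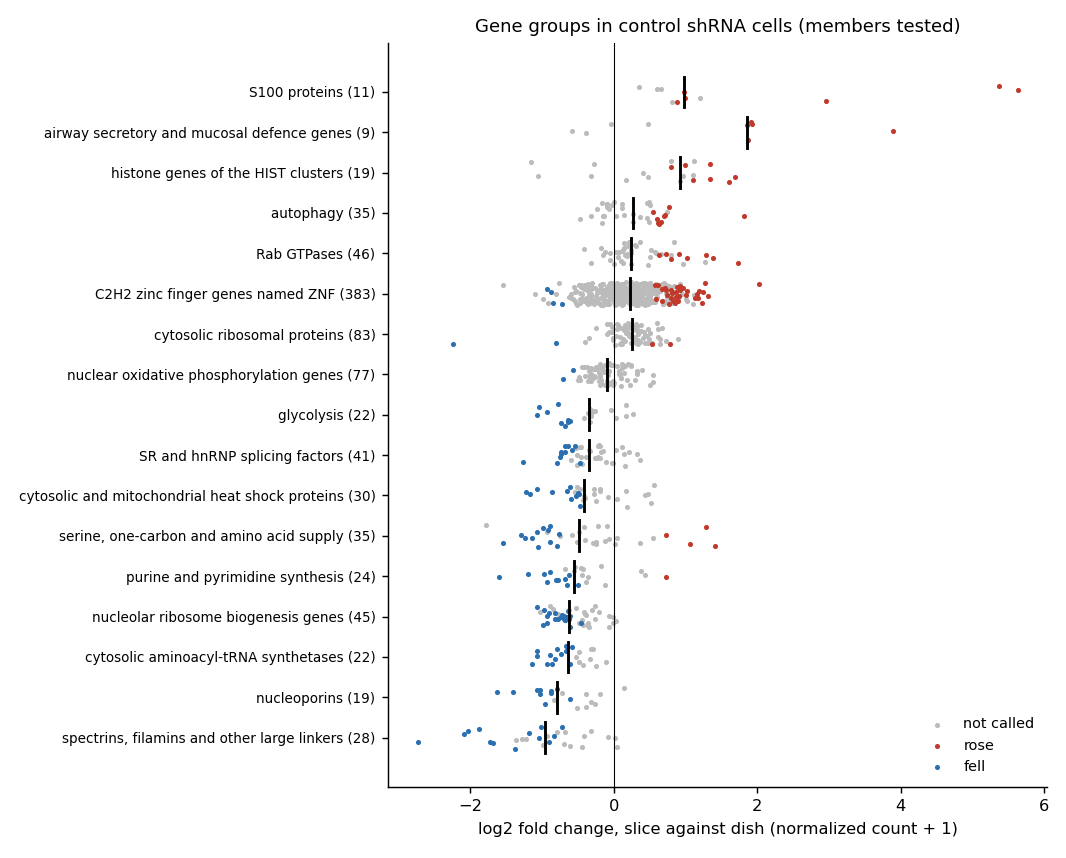
Log2 fold change between slice and dish in control shRNA cells (horizontal axis) of every tested member of 17 gene groups (rows, number tested in brackets), red for members that rose, blue for those that fell, grey for the rest, with a black bar at the group's median. S100 and airway secretory genes sit to the right, and nucleoporins, aminoacyl-tRNA synthetases and large linkers to the left. Respiratory genes lie close to 0 (median -0.10), and ribosomal protein genes slightly to the right (median 0.26).

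Many genes that make ribosomes and charge tRNA fell, while few ribosomal protein genes were called. Of 22 tested cytosolic aminoacyl-tRNA synthetases, 0 rose and 13 fell, and the median log2 fold change was -0.64, and 0 of 22 were above 0. LARS, which charges leucine tRNA, had 5959 and 6287 in the dish and 3034 and 2829 on the slice, a log2 fold change of -1.06 ± 0.15 (SE, adjusted p = 0.00563, limma), and EPRS (-1.14, adjusted p = 0.0081) and AARS (-1.06, adjusted p = 0.00869) fell too. Of 45 tested nucleolar genes, 0 rose and 21 fell, and the median log2 fold change was -0.62. The nucleolar protein NCL had 25497 and 25256 in the dish and 12922 and 13026 on the slice (-0.97, adjusted p = 0.00502), and NPM1 (-0.63, adjusted p = 0.0185) and the fibrillarin partners NOP56 (-0.69, adjusted p = 0.0326) and NOP58 (-0.93, adjusted p = 0.00597) fell. Of 83 cytosolic ribosomal protein genes 2 rose and 2 fell, and 70 lay above 0, with a median of 0.26. The 2 that fell were RPL36A (-2.24, adjusted p = 0.0248), at counts of 26.4 and 29.2 in the dish and 2.86 and 8.56 on the slice, and RPL39L (-0.81, adjusted p = 0.0454), and genes of this family have near-identical copies that could share reads. When replicate 2 of shL1CAM_slice was left out, 0 of the synthetases rose and 21 fell, 0 of the nucleolar genes rose and 38 fell and 44 of the ribosomal protein genes rose and 4 fell. Without any 1 of the 4 control libraries 0 genes of these 3 lists were called, while the median of the synthetases stayed between -0.64 and -0.62.

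Other genes tied to translation rose by large counts. TPT1, the translationally controlled tumour protein, had 22454 and 26172 in the dish and 51657 and 51582 on the slice (1.09, adjusted p = 0.00838), and the elongation factor EEF1A1 had 22462 and 23018 in the dish and 40034 and 41163 on the slice (0.84, adjusted p = 0.0073). The slice libraries lay well above the dish libraries in both, and both calls were lost without any 1 of the control libraries. EEF2, the translocase of elongation, had 32582 and 35963 in the dish and 45012 and 46873 on the slice and did not pass (0.42, adjusted p = 0.133). Initiation factors gave 2 rises and 4 falls among 53, with the helicase EIF4A2 up (0.93, adjusted p = 0.0127) and the scaffold EIF4G1 (-0.68, adjusted p = 0.0236) and the alpha subunit of eIF2, EIF2S1 (-0.74, adjusted p = 0.0118), down. Leaving out replicate 2 of shL1CAM_slice gave other counts: 12 of the initiation factors rose and 17 fell, and 0 were called without any 1 control library. TMSB4X, an actin-binding peptide (0.68, adjusted p = 0.038), and the secreted pentraxin NPTX1, known from synapses, also gained many counts. NPTX1 had 4612 and 4290.2 in the dish and 10665 and 10726 on the slice (1.27, adjusted p = 0.00443).

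Many genes of the nuclear pore and of RNA processing fell. Of 19 tested nucleoporins, 0 rose and 10 fell, and the median log2 fold change was -0.78. NUP107, a scaffold of the nuclear pore, had 1568 and 1537 in the dish and 570.1 and 608 on the slice, a log2 fold change of -1.40 ± 0.15 (SE, adjusted p = 0.00247, limma). NUP155 had 3822 and 3467 in the dish and 1205 and 1151 on the slice (-1.63, adjusted p = 0.00634), and NUP93, another pore subunit, had 2345 and 2187 in the dish and 1206 and 1272 on the slice (-0.87, adjusted p = 0.00634). Slice and dish libraries did not overlap in these. Of 41 tested splicing factors, 0 rose and 11 fell, and the median log2 fold change was -0.34, with SRSF5 at 5171 and 5464 in the dish and 2231 and 2198 on the slice (-1.26, adjusted p = 0.00247) and HNRNPU (-0.78, adjusted p = 0.0111) among them. Of 48 tested helicases, 0 rose and 10 fell, and the median log2 fold change was -0.35, with DHX9 (-1.01, adjusted p = 0.0126) among them. By contrast 2 of 26 importins and exportins fell, CSE1L (-0.74, adjusted p = 0.0143) and XPO5 (-0.69, adjusted p = 0.0215), or 10, with 2 rises, without replicate 2 of shL1CAM_slice and 0 without any 1 control library. Without replicate 2 of shL1CAM_slice, 0 of the nucleoporins rose and 17 fell, 2 of the splicing factors rose and 22 fell and 1 of the helicases rose and 28 fell. As each of the 4 control libraries was left out in turn, 0 of the nucleoporins rose and 0 to 1 fell, 0 of the splicing factors rose and 0 to 1 fell and 0 of the helicases rose and 0 fell.

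Among nuclear genes, some zinc finger genes and histone genes rose. Of 383 tested genes of the ZNF series, 35 rose and 4 fell, and the median log2 fold change was 0.23 (9.14% and 1.04%, against 6.8% and 8.03% of all genes), and 270 lay above 0. ZNF467 had 163 and 148 in the dish and 643 and 627 on the slice (2.02, adjusted p = 0.00283), ZNF641 had 161 and 158 in the dish and 374 and 348 on the slice (1.17, adjusted p = 0.00597) and ZNF362 had 350.2 and 332 in the dish and 661 and 622 on the slice (0.91, adjusted p = 0.00653). The shift of the family was small, and the number of rises moved from 1 at most without a control library to 122 without replicate 2 of shL1CAM_slice, with 27 falls. Of 19 tested histone genes, 7 rose and 0 fell, and the median log2 fold change was 0.93. HIST1H4H (1.35, adjusted p = 0.0298), HIST1H3H (1.34, adjusted p = 0.00771) and HIST1H2BD (1.10, adjusted p = 0.00634) were among them. The kit selects poly-A RNA, so histone messages without a tail were not measured, and histone genes are similar enough that reads could be shared between copies. In the fit that leaves out replicate 2 of shL1CAM_slice, 10 of the histone genes rose and 2 fell, and 0 to 2 rose with a control library left out.

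Several chaperones fell, led by a message that had made up a large share of the dish libraries. HSP90AA1, the inducible cytosolic HSP90, had 130874 and 118118 in the dish and 56354 and 54599 on the slice, a log2 fold change of -1.16 ± 0.14 (SE, adjusted p = 0.00355, limma). Its part of all signal was 0.845% and 0.771% in the dish and 0.378% and 0.367% on the slice. The constitutive HSP90AB1 had 32591 and 30677 in the dish and 17683 and 17153 on the slice (-0.86, adjusted p = 0.00694), and HSPD1, the mitochondrial chaperonin, had 16245 and 14357 in the dish and 7347 and 7239 on the slice (-1.07, adjusted p = 0.00368). All of these were lower in both slice libraries. Of 30 tested cytosolic and mitochondrial heat shock genes, 0 rose and 11 fell, and the median log2 fold change was -0.41. They included 4 subunits of the TRiC chaperonin, CCT5 (-0.66, adjusted p = 0.0185), CCT4 (-0.61, adjusted p = 0.0225), CCT6A (-0.49, adjusted p = 0.0441) and TCP1 (-0.47, adjusted p = 0.0442), whereas HSPA8 did not pass (38437 and 32103 in the dish and 36084 and 36421 on the slice; 0.05, adjusted p = 0.866). In the endoplasmic reticulum 5 of 27 chaperone genes fell and 0 rose, HSPA5 (-0.86, adjusted p = 0.0173) and the sensor ATF6 (-0.69, adjusted p = 0.0191) among them. Of 37 proteasome subunits 5 fell and 0 rose, among them PSMD14 (-0.77, adjusted p = 0.0111). When replicate 2 of shL1CAM_slice was left out, 4 of the heat shock genes rose and 19 fell, 2 of the reticulum chaperones rose and 14 fell and 1 of the proteasome subunits rose and 27 fell. Across the 4 fits that lack 1 control library, 0 of the heat shock genes rose and 0 to 2 fell, 0 of the reticulum chaperones rose and 0 fell and 0 of the proteasome subunits rose and 0 fell.

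Several autophagy and vesicle traffic genes rose. Of 35 tested autophagy genes, 9 rose and 0 fell, and the median log2 fold change was 0.26. WIPI1, which marks forming autophagosomes, had 30.3 and 34 in the dish and 129 and 104 on the slice (1.82, adjusted p = 0.00373), BECN1, a subunit of the lipid kinase that starts them, had 873 and 878 in the dish and 1477 and 1515 on the slice (0.77, adjusted p = 0.00979), and MAP1LC3B, the protein attached to their membrane, had 2967 and 3149 in the dish and 5094 and 4864 on the slice (0.70, adjusted p = 0.0109). The paralogs GABARAPL1 (0.72) and GABARAPL2 (0.60) and the cargo receptor OPTN (0.66) rose with them. Of 46 tested Rab GTPases, 8 rose and 0 fell, and the median log2 fold change was 0.24, and 38 of 46 lay above 0. RAB31 had 2209.7 and 2374 in the dish and 6179.7 and 5763 on the slice (1.38, adjusted p = 0.00411), the secretory RAB3D had 847 and 947 in the dish and 2196 and 2199 on the slice (1.29, adjusted p = 0.00253), and the endosomal RAB4A (1.03, adjusted p = 0.00586) and RAB22A (0.91, adjusted p = 0.00705) rose. Both slice libraries were above both dish libraries in each Rab gene given. Lysosomal genes did not follow, with 1 rise and 4 falls among 51, CTSC (-0.65, adjusted p = 0.0166) and LGMN (-0.75, adjusted p = 0.0294) among the falls, and 1 fall among 21 vacuolar ATPase subunits. Leaving out replicate 2 of shL1CAM_slice gave other counts: 16 of the autophagy genes rose and 2 fell, 18 of the Rab genes rose and 1 fell, 13 of the lysosomal genes rose and 13 fell and 5 of the vacuolar ATPase subunits rose and 4 fell. In fits without 1 of the 4 control libraries, 0 to 1 of the autophagy genes rose and 0 fell, 0 to 1 of the Rab genes rose and 0 fell, 0 of the lysosomal genes rose and 0 fell and 0 of the vacuolar ATPase subunits rose and 0 fell.

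Several lists gave few calls or none. Of 77 nuclear genes of oxidative phosphorylation 2 fell, NDUFA9 (-0.71, adjusted p = 0.0201) and ATP5B (-0.56, adjusted p = 0.026), and 0 rose, and of 75 mitochondrial ribosomal proteins 5 fell. Of 29 NRF2 targets and aldo-keto reductases 2 rose and 0 fell, among them the exporter ABCC3 (0.54, adjusted p = 0.0475). The metal-binding metallothioneins (3 tested) and the 40 tested TRIM ubiquitin ligases gave 0 calls by limma, although 14 TRIM genes rose and 1 fell without replicate 2 of shL1CAM_slice. Of 20 circadian genes 3 rose, the repressor NFIL3 (0.78, adjusted p = 0.0133) and the activators NPAS2 (0.97, adjusted p = 0.017) and ARNTL (0.65, adjusted p = 0.0413). Of 39 semaphorins, plexins, ephrins and Eph receptors 2 rose and 2 fell, with the guidance ligand EFNB3 at 11.7 and 9.43 in the dish and 43.9 and 48.1 on the slice (2.03, adjusted p = 0.00436). Without replicate 2 of shL1CAM_slice, 6 NRF2 targets rose and 5 fell, 10 respiratory genes rose and 22 fell, 5 mitochondrial ribosomal genes rose and 28 fell, 9 circadian genes rose and 2 fell and 11 guidance genes rose and 5 fell. With a control library left out, 0 genes of these lists were called.

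The remaining large falls were in genes with no common list. ANKRD2, an ankyrin-repeat protein of muscle, had 104 and 107 in the dish and 17.2 and 13.9 on the slice (-2.69, adjusted p = 0.00184), and MC5R, a melanocortin receptor, had 191 and 132 in the dish and 24.8 and 24.6 on the slice (-2.63, adjusted p = 0.00253). SLC16A6, a monocarboxylate carrier relative, had 127 and 102 in the dish and 22 and 21.4 on the slice. Slice values of these ran from 13.9 to 24.8, below every dish value. GOLGA8A had 116 and 125 in the dish and 17.2 and 36.4 on the slice (-2.22, adjusted p = 0.00619), and its near-identical copy GOLGA8B fell as well (-1.61, adjusted p = 0.00781), so reads may be split between them. ANKRD18A (-2.11, adjusted p = 0.00339) and PABPC1L (-2.07, adjusted p = 0.012) also have close relatives, and their counts are uncertain in the same way.

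Marker genes set beside these results gave the following levels. As a check of the labelled line, the epithelial markers KRT8, KRT18 and EPCAM were present (78.3 and 121 in the dish and 120.3 and 111 on the slice for EPCAM), CDH1 was low (27.4 and 30.2 in the dish and 21 and 21.4 on the slice), KRT7 was below 10, and KRT19 was at 0 or 1 read in each control library. The lung lineage markers NKX2-1, NAPSA, SFTPB, SFTPC and SFTPA1 had a normalized count under 9 in every control library. Of the oligodendrocyte markers, which are given only in part, MOG and OLIG2 were at 0 in all 4 libraries, and MBP, expressed in the dish as well, had 1293 and 1181 in the dish and 2030.3 and 1821 on the slice (limma adjusted p = 0.0641). The other members and the sum of this set are not reported here, so these values do not show that the set was absent or unchanged on the slice. The summed count of the markers low in the dish was 8.8 and 7.54 against 5.73 and 7.49 for neurons, 3.91 and 4.72 against 5.73 and 1.07 for astrocytes, and 14.7 and 6.6 against 5.73 and 15 for microglia and macrophages, whose C1QA, C1QB, C1QC and P2RY12 were at 0. Endothelial and mural markers summed to 21.5 and 16 against 15.3 and 24.6. These sums cover only markers with a dish mean under 10, which were 4 of 12 for neurons and 5 of 8 for astrocytes. Of the 8 tested neuron markers 0 rose and 0 fell by limma, with values in both directions. SLC17A7 had 18.6 and 40.6 in the dish and 85 and 76 on the slice (1.51, limma adjusted p = 0.0633). RBFOX3 had 13.7 and 13.2 in the dish and 1.91 and 7.49 on the slice (-1.54, limma adjusted p = 0.0884).

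S100A8, S100A9 and SLPI are also genes of neutrophils. Of 7 neutrophil markers FCGR3B and CXCR2 were at 0 in all 4 control libraries, MPO, LTF, CSF3R and CEACAM8 were at 0 or 1 read, and ELANE had 15.7 and 18.9 in the dish and 17.2 and 22.5 on the slice. The summed count of the 6 low neutrophil markers was 0.978 and 1.89 in the dish and 1.91 and 0 on the slice. The named builds are human, and whether mouse reads contributed to a gene was not tested. The 27 genes that rose from a dish mean under 10 included S100A8, CLDN4, ALDH3A1 and SERPINA3. Without the genes under 10 in the dish the fit called 1904 genes.

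Most of these genes moved the same way between the slice and dish libraries with L1CAM shRNA, which are other samples although the same fit estimates their spread. In that comparison 1312 genes rose (10.1%) and 1463 fell (11.2%), and their sum of 2775 ran from 341 to 7503 as single libraries were left out. They included 700 of the 885 that rose in control cells (79.1% of these and 53.4% of those) and 809 of the 1045 that fell (77.4% and 55.3%). By sign alone, 884 of 885 and 1043 of 1045 agreed, against 81% of all genes tested and 77.7% of those not called in control cells. In 863 of the 885 and 1024 of the 1045 both L1CAM shRNA slice libraries also lay beyond both L1CAM shRNA dish libraries. How many of all tested genes did so with L1CAM shRNA was not counted. With control shRNA such separation was common, at 39.8% of all tested genes above and 37.3% below. S100A9 was at 186 and 103 in the dish and 14596 and 25809.9 on the slice there. THBS1 was at 4088 and 5402 in the dish and 732 and 325 on the slice. Of the 243 named genes called in control cells, 242 had the same sign and 208 were called in the same direction.

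The test of the difference between the responses, the interaction, called 0 genes (0.0%) by limma, with 162 at an unadjusted p under 0.05, 0 by edgeR and 0 by DESeq2. Without replicate 1 of shL1CAM_slice it called 4136, when replicate 2, the library that stood apart, was alone in its group. Named genes with unequal values included HBEGF (-0.66 with control and 0.02 with L1CAM shRNA), INSIG1 (0.82 and 0.05), LSS (0.58 and 0.07), KLF2 (1.17 and 0.37), PROS1 (1.29 and 0.53) and TNFAIP3 (-1.16 and -0.41). Each of these had an interaction adjusted p of at least 0.97 (limma), so a difference was not shown. They were chosen after their values were seen.

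**Figure D4:**
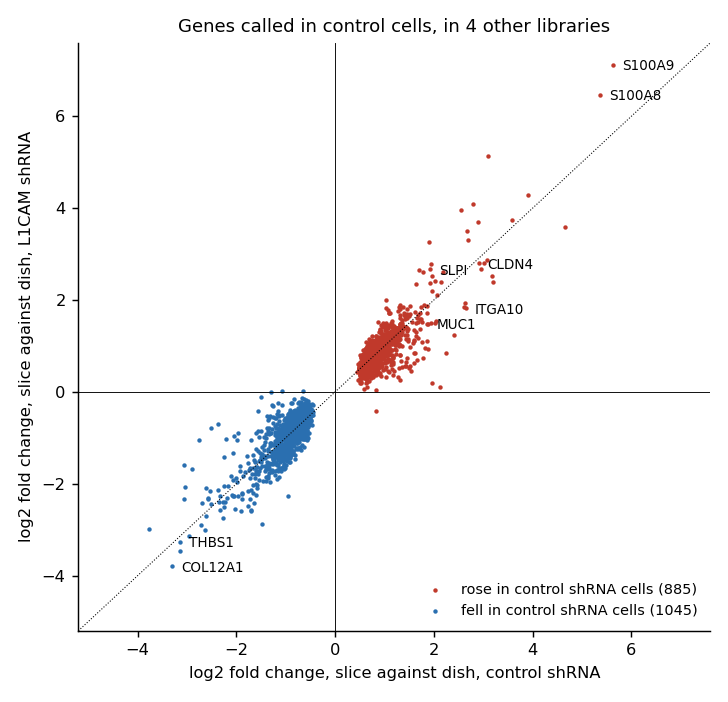
Log2 fold change between slice and dish with L1CAM shRNA (vertical axis) against that with control shRNA (horizontal axis) for the 885 genes that rose (red) and the 1045 that fell (blue) in control cells, with the dotted line marking equal values. The points were selected on the horizontal axis, and 884 of the red and 1043 of the blue ones have the same sign on the vertical axis.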

How the data were processed

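The authors deposited 1 table with a normalized signal for each gene and library. Per the submitters' processing notes, FastQC 0.11.3, HTSeq 0.5.4 and DESeq2 were used with the builds hg19 and GRCh37. The aligner is not given in the sources used here. The columns were whole multiples of 1 step each within 1e-06, for 100% of values, so they are read counts divided by a size factor, and reads were recovered. The kit keeps no strand, so overlapping genes cannot be told apart. Of all sample columns, 0 were left unused.

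Every log2 fold change is on the scale log2(normalized count + 1). A limma 3.58.1 fit (R 4.3.3) with eBayes and an intensity trend took the 4 group means of all 8 libraries, which assumes equal spread. Tests were two-sided with Benjamini-Hochberg adjustment over 13010 genes at 0.05. The script was tested on simulated data.

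Named are the 12 largest rises (dish mean at least 50) and 12 largest falls, the 6 largest rises from a dish mean under 10, the 8 largest gains and 8 largest losses in count, all with a mean of at least 50, separated groups and outside the cell cycle and YAP/TAZ lists, and up to 4 members per list by p. Some genes that the rule names are not reported here. Further members of a list that are given were chosen after their values were seen. The groups compared and the 76 lists were chosen with earlier results of these data known. Lists have no test of their own and are described beside all genes. Transcript lengths came from GENCODE 29 by symbol (12488 of 13010 genes, 96.0%), and promoters from RefSeq.

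Alternatives were other pseudocounts, filters and scalings, robust eBayes, a replicate block, the 4 control libraries alone, each library left out, edgeR 4.0.16 and DESeq2 1.42.0, which took the recovered reads and called 1990 and 2347 genes, and, added after the data were seen, library weights and removal of a transcript-length trend.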

Additional observations from a re-analysis of the deposited data

How the results depend on the processing

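The 1930 genes called in control cells became 6808 in a fit of the 4 control libraries alone, 3310 with the transcript-length trend removed and 7032 with library weights, and the 1930 were kept in full in the first and the last. With a library left out the count ran from 7 to 6109. The other planned settings gave 1529 to 2347, with 1990 by edgeR, 2347 by DESeq2 and 1529 with no filter on low values. None of the 1930 changed sign under any setting run, but several settings alter only the spread and leave the control fold change as it was. With L1CAM shRNA the count of 2775 ran from 341 to 7503 with a library left out and was 975 with library weights. The interaction count of 0 ran from 0 to 4136 with a library left out, and was 0 at every other setting run. Of 243 named genes called, edgeR kept 239 and DESeq2 234, and 6 to 52 were kept without 1 of the control libraries. Of list medians, 90 of 1672 values under an alternative moved beyond the replicate spread, and the settings that alter only the spread could not move a median.

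Deviations of replicates with the same number had correlations of -0.38 to 0.19 between groups, and the labels pair them by no more than the number. The value of -0.38 was between shControl_dish and shL1CAM_dish, where replicate 1 of shControl_dish thus tended to deviate with replicate 2 of shL1CAM_dish. A block by replicate number does not model this. With a replicate block the fit called 1814 genes in control cells, 2777 with L1CAM shRNA and 0 for the interaction, and 230 of the 243 named genes kept their call. With a library left out, 1 sample stands for its group and is assumed to vary like the others. The count in control cells then went down without a control or shL1CAM_dish library and up without a shL1CAM_slice library. The reason was not tested. Genes under 3 reads in a group have no measured level there.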
